A study of Drosophila melanogaster with 6 samples.

Results

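The genes described here are 8 components of the machinery that fuses synaptic vesicles with the plasma membrane: nSyb, Syx1A, Snap25, Rop, cpx, comt, Csp and Rab3. They were chosen by name and matched by FlyBase identifier, and all 8 were found among the 17471 genes counted. The libraries came from adPNs of Drosophila melanogaster, the olfactory projection neurons born from the anterodorsal lineage, at 36 to 40 h after puparium formation. Wild-type and acj6 mutant adPNs gave 3 libraries each, and the titles of the latter name acj66. acj6 encodes a POU-domain transcription factor, and its lesion, the driver and the number of animals per library are not given in the labels. The files also list a membrane GFP transgene, which was counted in all 6 libraries, so the controls carry it too.

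Transmitter release depends on SNARE proteins, which zip together from opposing membranes and pull a vesicle onto the plasma membrane. nSyb is the SNARE of the vesicle, Syx1A and Snap25 are those of the target membrane, Rop is the Sec1/Munc18 protein that binds Syx1A, and cpx encodes complexin, which clamps the assembled complex until calcium enters. After fusion the NSF ATPase encoded by comt takes spent complexes apart, Csp is a vesicle chaperone that protects SNAP-25, and Rab3 is the vesicle GTPase that acts before fusion at the active zone. At this stage of pupal life projection neurons are still wiring their dendrites and axons.

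The libraries held between 24467328 and 38279909 gene counts, and 3 counts in a library correspond to 0.0784 to 0.123 CPM, the counts per 1000000 gene counts. Values below are CPM after TMM scaling, which evens out composition between libraries, with mean ± SD over 3 libraries. The transcript of acj6 was counted at 149 ± 7.96 CPM in the wild type and 251 ± 24.2 CPM in the libraries labelled mutant (log2 fold change 0.75 ± 0.12, adjusted p 0.0124). As the lesion is not given, a count over the gene does not check the genotype label. Below, mutant means the libraries so labelled. The pan-neuronal gene elav was at 286 ± 21.6 and 253 ± 20.7 CPM. Of the 4 listed adPN markers (acj6, kn, C15 and elav), 2 were called higher and none lower, against 3.07% and 1.33% of all genes tested. The 2 markers were acj6 itself and kn, a transcription factor gene at 403 to 492 CPM in the wild type and 1175 to 1420 CPM in the mutant. C15 was at 136 to 195 CPM in the wild type and at 144 to 181 CPM in the mutant. The 3 lateral-lineage markers vvl, Lim1 and ct summed to 25.5 to 37.6 CPM and to 15.2 to 25.4 CPM, most of it ct, with none called and a median log2 fold change of -0.48. The part of these markers in the results below was not tested.

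All 8 genes were detected in every library, with between 265 and 153314 counts, and all 8 passed the filter on low counts. Together they took 0.760% to 0.801% of the gene counts of a wild-type library and 0.718% to 0.785% of a mutant one, and these ranges overlapped. Levels of different genes were compared per kilobase of the median annotated transcript. On that scale Rab3 was the highest in the wild type at 1344 ± 71.1 CPM per kb, followed by nSyb at 649 ± 42.8 and cpx at 396 ± 9.92. Syx1A (148 ± 11.3 CPM per kb) and Rop (115.4 ± 6.30) came next, and Csp was at 43.7 ± 2.40. Snap25 (17 ± 2.28 CPM per kb) and comt (3.74 ± 0.260) were the lowest. No neighbours in this order overlapped between wild-type libraries. By level per kilobase over all 6 libraries, Rab3 stood 35th and comt 5949th among the 9093 tested genes with a known transcript length.

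The order was the same in the mutant-labelled libraries except for Rop and Syx1A. Rop was at 186 ± 32.8 CPM per kb and Syx1A at 151 ± 22.9 there, and these overlapped. The order of these 2 genes depends on the transcript length used: with the length of all annotated exons joined, Rop was above Syx1A in the wild type too, by 0.17 on the log2 scale, against -0.36 with the median transcript.

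**Figure D1:**
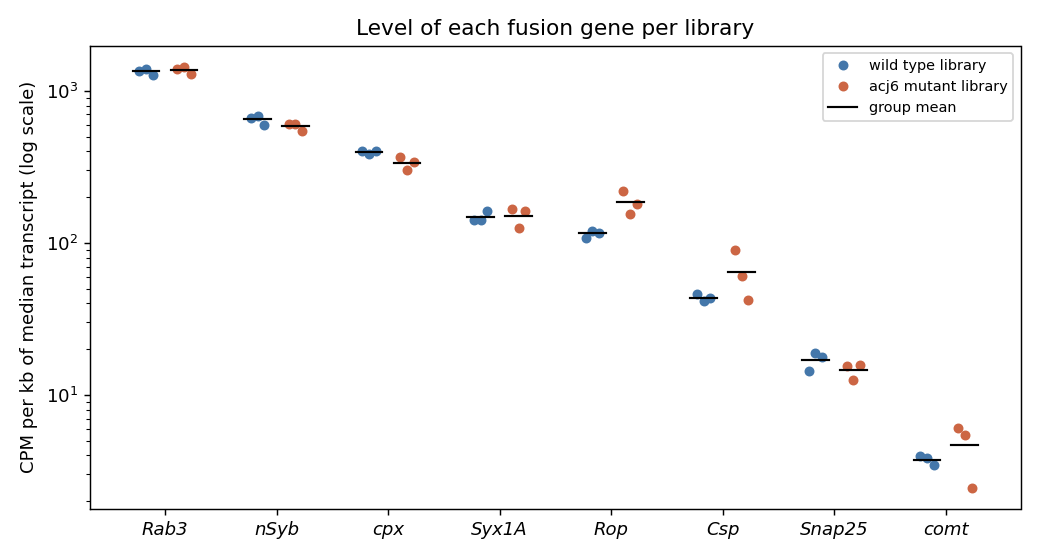
Level of the 8 fusion genes in each library, in CPM per kilobase of the median annotated transcript on a log axis, with points for libraries and lines for group means. Rop is higher in all 3 mutant-labelled libraries than in any wild-type one, while Rab3 stays near 1344 and 1373 CPM per kb in the 2 groups.

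Rop was the 1 gene of the 8 that passed the threshold between the genotypes, and it rose 1.61-fold in the mutant-labelled libraries. The test was edgeR's quasi-likelihood test fitted over 9229 genes, with a Benjamini-Hochberg adjusted p under 0.05 as the threshold. It called 4.40% of all genes tested (3.07% higher and 1.33% lower), so 1 of 8 is a count that cannot set these genes apart from the rest. The median log2 fold change of the 8 was 0.03, against -0.01 over all genes tested. Rop and cpx were the 2 genes of the 8 whose groups did not overlap, which was so for 23.2% of all genes tested. In bulk RNA, fewer cells of a type and less RNA per cell cannot be told apart.

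The genes of the SNARE proteins themselves did not pass the threshold. nSyb (FBgn0013342, arm 3L) was at 1494, 1527 and 1347 CPM in wild-type replicates 1 to 3 and at 1351, 1351 and 1228 CPM in mutant replicates 1 to 3. The mutant values lay at the low end and overlapped the wild-type range, with a log2 fold change of -0.15 ± 0.09 (SE), a 95% interval of -0.35 to 0.05 and an adjusted p of 0.450. Syx1A (FBgn0013343, arm 3R) was at 375, 373 and 426 CPM in the wild type and at 441, 330 and 426 CPM in the mutant. The groups covered the same range, and the 95% interval of the log2 fold change was -0.27 to 0.33 (0.03 ± 0.13, adjusted p 0.948). The gene eIF4EHP overlaps 10.7% of the annotated exon length of Syx1A on the same strand, and reads there could be lost or shared. Its own groups were at 77.3 ± 0.485 and 64.4 ± 6.52 CPM (adjusted p 0.460).

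Snap25 (FBgn0011288, arm 3L) was far below its partners, at 32.3, 42.0 and 39.7 CPM in the wild type and 34.4, 28.0 and 35.2 CPM in the mutant. Its counts ran from 837 to 1479 per library, so counting error was small beside the spread between libraries. The log2 fold change was -0.22 ± 0.21 (95% interval -0.71 to 0.26, adjusted p 0.676). The interval of this SNARE gene was wider than those of nSyb and Syx1A.

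Rop (FBgn0004574, arm 3L), the Sec1/Munc18 protein, was at 263, 293 and 284 CPM in the wild type and at 536, 378 and 437 CPM in the mutant. The lowest mutant library stood above the highest wild-type one, and mutant replicate 1 was the highest of all. The log2 fold change was 0.69 ± 0.14 (95% interval 0.37 to 1.0, adjusted p 0.0306), and DESeq2 and limma-voom also called it (adjusted p 1.04e-04 and 0.0288). The call was lost when any library but mutant replicate 2 was left out: the adjusted p was 0.0875, 0.0889 and 0.0862 without wild-type replicates 1, 2 and 3 and 0.0771 and 0.0783 without mutant replicates 1 and 3, against 0.0327 without mutant replicate 2. The log2 fold change in those 6 fits stayed between 0.54 and 0.80.

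Ras64B, a Ras-family gene, lies head to head with Rop in the Ensembl annotation, with 80 bases between the annotated starts and no shared exon. Ras64B was at 36.0, 30.1 and 27.3 CPM in the wild type and at 19.5, 16.5 and 16.6 CPM in the mutant. All 3 mutant libraries were below all 3 wild-type ones, with a log2 fold change of -0.83 ± 0.24 that did not pass the threshold in edgeR (adjusted p 0.0971) and did in DESeq2 (adjusted p 0.0219).

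cpx (FBgn0041605, arm 3R), which encodes complexin, was at 1455, 1394 and 1459 CPM in the wild type and at 1341, 1088 and 1235 CPM in the mutant. All mutant libraries were below all wild-type ones, by a small margin at mutant replicate 1. The log2 fold change was -0.23 ± 0.09 (95% interval -0.45 to -0.02), with an unadjusted p of 0.0366 and an adjusted p of 0.253, so it did not pass the threshold. An unadjusted p under 0.05 was reached by 16.6% of all genes tested. cpx has 21 annotated transcripts of 2094 to 9682 bases, and counts per gene do not separate them.

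comt (FBgn0000346, X chromosome), the NSF ATPase, was at 12, 11.7 and 10.5 CPM in the wild type and at 18.5, 16.7 and 7.51 CPM in the mutant. Mutant replicates 1 and 2 were above the wild type and replicate 3 below it. The log2 fold change was 0.32 ± 0.39 (95% interval -0.56 to 1.2, adjusted p 0.758). It was 0.082 without mutant replicate 1 and 0.63 without mutant replicate 3.

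Csp (FBgn0004179, arm 3L), the vesicle chaperone, showed a similar spread, at 98.2, 87.9 and 92.7 CPM in the wild type and at 190, 129 and 90.2 CPM in the mutant. Mutant replicate 3 lay within the wild-type range and replicates 1 and 2 above it. The log2 fold change was 0.56 ± 0.24 (unadjusted p 0.0489, adjusted p 0.298). It was 0.24 without mutant replicate 1 and 0.79 without mutant replicate 3. The coefficient of variation of comt and Csp was 41.5% and 36.9% in the mutant and 6.96% and 5.50% in the wild type.

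Rab3 (FBgn0005586, arm 2R), the vesicle GTPase, was at 4006, 4130 and 3723 CPM in the wild type and at 4073, 4228 and 3808 CPM in the mutant. The groups overlapped almost fully. Its log2 fold change of 0.03 ± 0.07 had the narrowest 95% interval of the 8 genes, -0.14 to 0.20 (adjusted p 0.893).

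**Figure D2:**
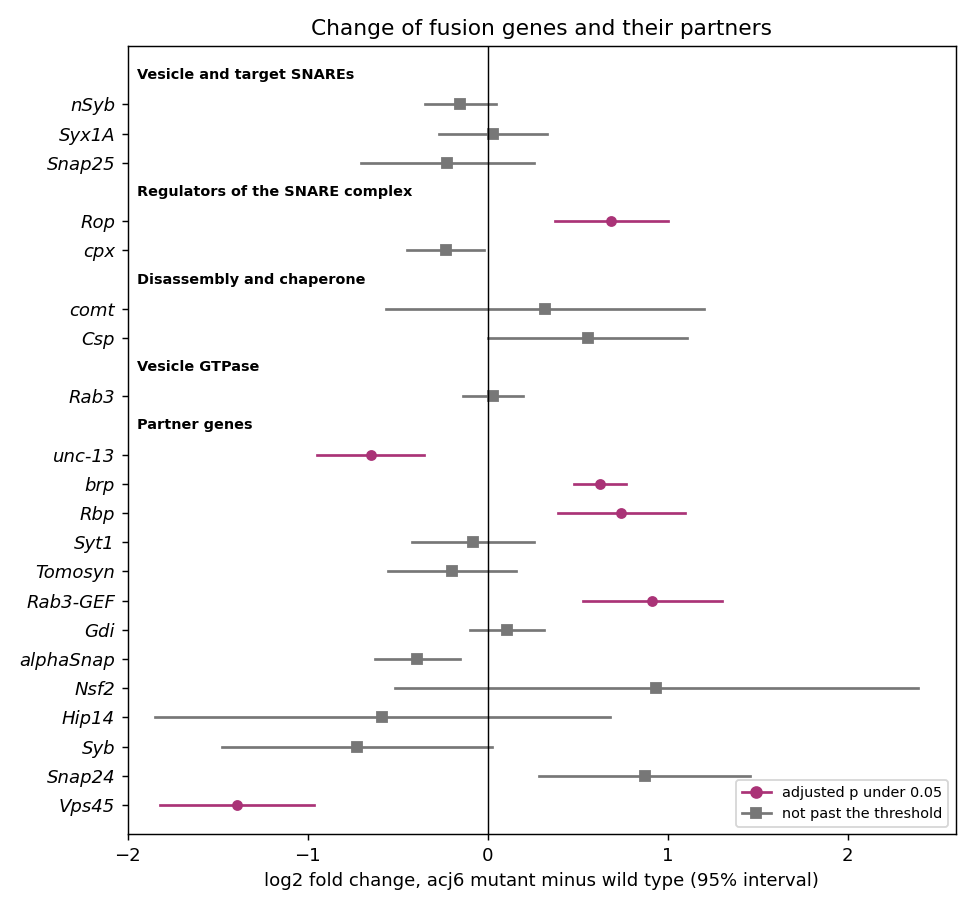
Log2 fold change (mutant minus wild type) of the 8 fusion genes, by role, and of named partner genes, with the 95% interval from the fit as bars and genes past the threshold as round points. Rop at 0.69 is the coloured gene among the 8, and the partners brp, Rbp and Rab3-GEF lie to its side of 0 while unc-13 and Vps45 lie on the other.

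Partner genes of these proteins were read from 6 lists, which held 56 genes besides the 8, all tested. Of the 56, 3 rose and 2 fell, and their median log2 fold change was -0.07, against 4.40% called and a median of -0.01 over all genes tested. These 5 are 3 calls of 11 among priming and triggering genes, 1 of 5 in the Rab3 cycle and 1 of 4 among other Sec1/Munc18 genes. DESeq2, which called 10.2% of all genes, called 12 of the 56, and limma-voom called the same 5 as edgeR.

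Among the 11 priming and triggering genes, brp and Rbp passed the threshold as higher and unc-13 as lower. In all, 6 of the 11 had a positive log2 fold change and 5 a negative one. Cadps (-0.82 ± 0.21, adjusted p 0.0680) and Syt7 (-0.86 ± 0.26, adjusted p 0.121) did not pass in edgeR, and DESeq2 called both lower. unc-13, Cadps and Syt7 all lie on chromosome 4, and the part of this shared arm was not tested. brp, the active zone scaffold, was at 3774, 3961 and 3649 CPM in the wild type and at 5954, 5793 and 5803 CPM in the mutant. The brp groups lay far apart beside their own spread (log2 fold change 0.62 ± 0.06, adjusted p 0.00243), and brp passed in all 6 fits without a library. With each library's trend on transcript length removed, brp was 0.27 higher on the log2 scale (adjusted p 0.0449). Rbp, the RIM-binding protein that couples calcium channels to vesicles, averaged 105 ± 17.8 CPM in the wild type and 175 ± 14.4 CPM in the mutant. Rbp passed at an adjusted p of 0.0332 (log2 fold change 0.74 ± 0.16). unc-13, whose product opens Syx1A for assembly with its partners, was at 502, 444 and 402 CPM in the wild type and at 321, 250 and 287 CPM in the mutant. The unc-13 groups did not overlap, and the log2 fold change was -0.65 ± 0.13 (adjusted p 0.0307). With the length trend removed, unc-13 was at -1.02 (adjusted p 0.00604). unc-13 and Rop both act on Syx1A, and their counts moved in opposite directions while that of Syx1A did not pass the threshold. A link between the changes of unc-13 and Rop was not tested.

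The call of unc-13 was lost without wild-type replicates 1 (adjusted p 0.0875) and 2 (0.104) and without mutant replicates 2 (0.0916) and 3 (0.0976). Antisense and noncoding genes overlap 25.2% of its annotated exon length, and the strand setting of the counting is not given in the sources used here. Rbp kept its call only without wild-type replicate 1 (adjusted p 0.0271). It was at 0.130 and 0.108 without wild-type replicates 2 and 3 and at 0.0798, 0.114 and 0.0739 without mutant replicates 1, 2 and 3, and at 0.0875 with the length trend removed. The calcium sensor gene Syt1 (256 ± 42.1 and 242 ± 29.5 CPM) and Tomosyn (117 ± 7.91 and 102 ± 15.6 CPM), a decoy that binds target SNAREs, did not pass the threshold.

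In the Rab3 cycle, Rab3-GEF, the exchange factor that loads Rab3 with GTP, rose while Rab3 did not pass the threshold. Rab3-GEF was at 95.7, 81.9 and 81.2 CPM in the wild type and at 173, 186 and 129 CPM in the mutant. The lowest mutant library was above the highest wild-type one (log2 fold change 0.92 ± 0.17, adjusted p 0.0218). With each library's trend on transcript length removed it was 0.59 with an adjusted p of 0.0726. The call was also lost without wild-type replicates 2 (0.0889) and 3 (0.0760) and without mutant replicates 1 (0.0688) and 2 (0.0763). Rab3GAP1 was at 291 ± 26.6 and 380 ± 24.1 CPM, without overlap between the groups (log2 fold change 0.39 ± 0.11). It did not pass the threshold in edgeR (adjusted p 0.102), and DESeq2 called it higher. Gdi, which extracts Rab proteins from membranes, was at 3653 ± 336 and 3933 ± 290 CPM (adjusted p 0.630).

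Vps45, a Sec1/Munc18 protein of the same family as Rop that serves endosomal SNAREs, fell to 0.381 of its wild-type level. It was at 228, 225 and 230 CPM in the wild type and at 64.2, 86.8 and 109 CPM in the mutant. Every mutant library was far below every wild-type one (log2 fold change -1.39 ± 0.19, adjusted p 0.00770). Its call held in all 6 fits without a library (log2 fold change -1.59 to -1.22, adjusted p 0.00994 to 0.0361). The other Sec1/Munc18 genes in that list, car, Vps33B and Slh, did not pass the threshold.

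**Figure D3:**
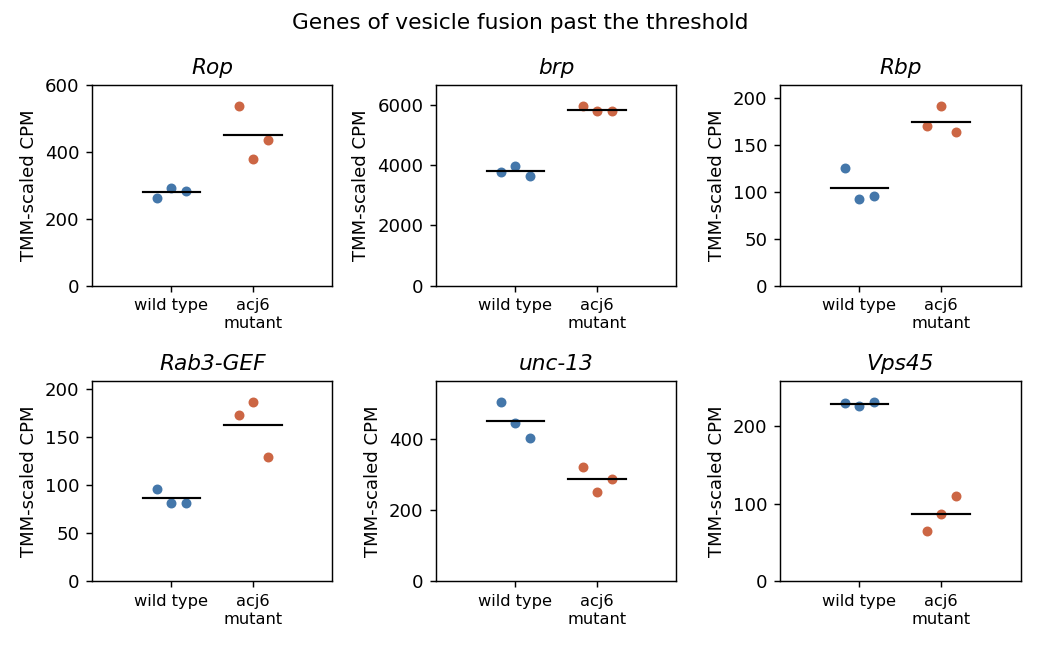
TMM-scaled CPM per library of Rop and of the 5 partner genes past the threshold, with points for libraries and lines for group means, each axis starting at 0. The panels show genes chosen for passing the threshold, and the groups do not overlap in any of them, as for 23.2% of all genes tested. Vps45 averages 228 CPM in the wild type and 86.7 CPM in the mutant.

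None of the 7 disassembly and chaperone genes passed the threshold in edgeR or limma-voom (1 had an unadjusted p under 0.05, and DESeq2 called 1). alphaSnap, the adaptor that brings NSF to spent complexes, was that gene, at 586, 526 and 497 CPM in the wild type and 400, 390 and 437 CPM in the mutant (log2 fold change -0.39 ± 0.10, adjusted p 0.0772 in edgeR and 0.0147 in DESeq2). The second NSF gene, Nsf2, ranged from 5.92 to 34.3 CPM in the wild type and from 15.6 to 57.9 CPM in the mutant. Hip14, the palmitoyl transferase of Csp and Snap25, ranged from 11.7 to 39.5 and from 8.45 to 33.1 CPM. Both ranges overlapped widely.

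None of the 22 other SNARE genes passed the threshold in edgeR or limma-voom (3 had an unadjusted p under 0.05, and DESeq2 called Snap24 and Ykt6), and their median log2 fold change was -0.10. Syb, the widely expressed synaptobrevin, was at 14.4 ± 2.5 and 8.73 ± 1.48 CPM (log2 fold change -0.72 ± 0.33, adjusted p 0.321). In the wild type its level per kilobase was 15.7 ± 2.72 CPM, against 649 ± 42.8 for nSyb. Snap24, the paralogue of Snap25, was at 33.1, 36.4 and 22.4 CPM in the wild type and at 43.1, 56.0 and 69.3 CPM in the mutant (0.87 ± 0.26, adjusted p 0.107). Per kilobase, Snap24 and Snap25 stood at 16.6 ± 3.97 and 17 ± 2.28 CPM in the wild type and at 30.4 ± 7.11 and 14.6 ± 1.77 CPM in the mutant. Of the 8 exocyst genes, whose complex tethers vesicles to the plasma membrane, none passed in edgeR or limma-voom (1 had an unadjusted p under 0.05, and DESeq2 called Sec10). Among 5 general neuronal genes CadN, an adhesion gene, rose (510 ± 56.6 to 767 ± 59.4 CPM, adjusted p 0.0243) and lost its call with the length trend removed (adjusted p 0.306). Its call was also lost without wild-type replicates 2 and 3 (0.101 and 0.0826) and mutant replicates 1 and 2 (0.0814 and 0.0763). The synaptic vesicle gene Syn, in that list too, was at 221 ± 11.2 and 271 ± 17.9 CPM (adjusted p 0.204). Of the 5, 2 had a positive log2 fold change and 3 a negative one, with a median of -0.18. The negative ones were elav, fne (1033 ± 27.6 and 844 ± 184 CPM, adjusted p 0.378) and futsch (1127 ± 54.0 and 966 ± 98.0 CPM, adjusted p 0.306). None of these passed the threshold.

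Ratios of counts within a library do not depend on scaling between libraries, and 8 were compared. With 3 libraries against 3, the exact two-sided permutation test cannot give a p below 0.1, so none could pass 0.05. Rop counts were 0.700, 0.785 and 0.666 of the Syx1A counts in the wild type and 1.21, 1.15 and 1.02 of them in the mutant. The groups did not overlap, and the log2 ratio differed by 0.65 ± 0.10 (SE; exact permutation p 0.1, adjusted p 0.20). The ratio of cpx to Syx1A was 3.87, 3.74 and 3.43 in the wild type and 3.04, 3.30 and 2.90 in the mutant, again without overlap (difference -0.26 ± 0.07 on the log2 scale, exact permutation p 0.1). Snap25 stood at 0.975, 1.15 and 1.77 of the Snap24 counts in the wild type and at 0.798, 0.50 and 0.508 in the mutant (difference -1.10 ± 0.34, exact permutation p 0.1).

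The ratio of Snap25 to Syx1A was 0.0860, 0.113 and 0.0932 in the wild type and 0.0780, 0.0849 and 0.0827 in the mutant. These groups did not overlap, by a very small margin, with a log2 difference of -0.24 ± 0.12 (exact permutation p 0.1, adjusted p 0.20). Ratios that share Syx1A as denominator are not independent of each other. The ratios nSyb to Syx1A, comt to alphaSnap, nSyb to Syb and comt to Nsf2 overlapped, with exact permutation p between 0.2 and 0.4.

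**Figure D4:**
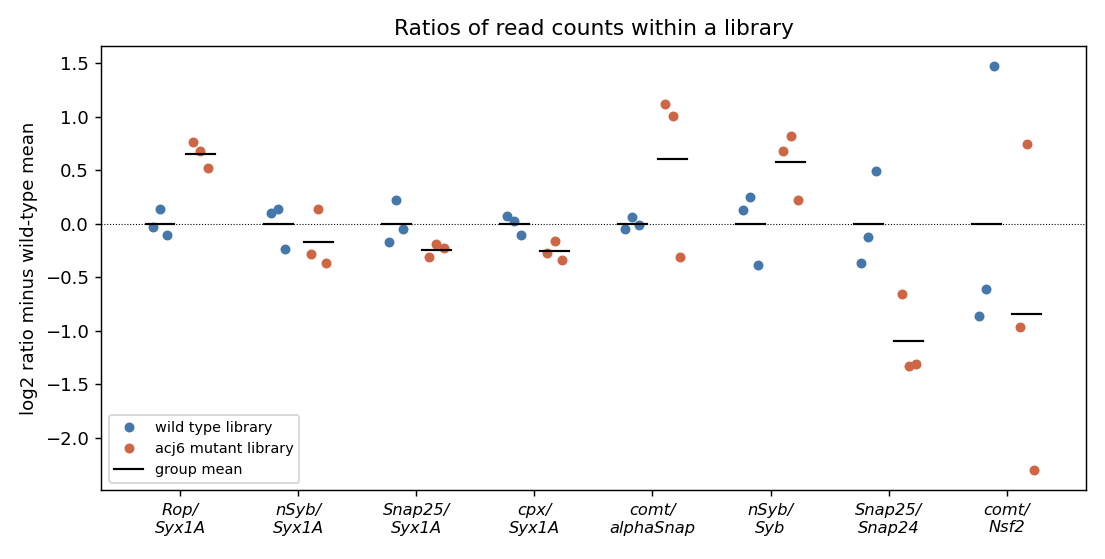
Log2 ratios of read counts of gene pairs within each library, drawn relative to the wild-type mean of each pair, with points for libraries and lines for group means. Rop over Syx1A is 0.65 higher in the mutant with no overlap, while comt over Nsf2 spreads widely in both groups.

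The genes whose counts followed each member most closely were sought among 5934 tested genes of at least 10 CPM that are not among the 8, by Pearson's r of log2 CPM over the 6 libraries, which share their depth and scaling. For Rop these were CG11360 (r = 0.995) and CG42394 (0.992). Since the genes were picked for following a member over these libraries, their own differences between the groups follow from the choice and are not given as results. For cpx they were CG13532 (0.999) and Vps24 (0.995). The closest were wwk (0.991) and slpr (0.988) for nSyb, c12.1 (0.982) and Prx3 (0.978) for Syx1A, and Uxt (0.986) and CR18217 (0.985) for Snap25. They were CG8461 (0.984) and side-IV (0.976) for comt, Ctl1 (0.970) and heca (0.968) for Csp, and Rpn2 (0.995) and Plod (0.984) for Rab3. Between 6 and 40 genes reached an r of 0.95 for each member, so these names describe 6 libraries and no more.

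Other genes near the members gave little signal. CG11523, which starts 703 bases from Csp on the other strand, was at 68.7 ± 8.0 and 73.9 ± 7.79 CPM (adjusted p 0.817). mew, an integrin gene that starts 531 bases from comt, was at 4.3 ± 2.6 and 7.98 ± 3.70 CPM (adjusted p 0.560). CG15742 near comt and lncRNA:CR45597 near cpx did not pass the filter on low counts, and CG15742 had 45 of its 46 counts in mutant replicate 2.

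Some marker lists of other cells differed between the groups. The summed level of the 10 glial markers ran from 661 to 745 CPM in the wild type and from 535 to 600 CPM in the mutant. Without nrv2, which was called lower, the sums were 260 to 309 and 216 to 294 CPM and overlapped. The listed glial genes differed widely in level over the 6 libraries. repo was at 0.664 to 3.04 CPM, wrapper at 9.83 to 21.4, alrm at 18.5 to 32.2, Indy at 22.4 to 60.1 and Gs2 at 118 to 180 CPM. Of 10 listed markers of other brain neurons 9 matched, with sums of 378 to 477 and 253 to 326 CPM and none called. Without Tbh, the most abundant of them, the sums were 190 to 271 and 101 to 127 CPM and did not overlap. Of the 8 tested, 7 had a negative log2 fold change and 1 a positive one. An unadjusted p under 0.05 was reached by 3 of the 8, all lower. Of the 9229 genes tested it was reached by 16.6%, 659 lower and 874 higher. The epithelial and cuticle markers (9 of 10 matched) summed to between 31.8 and 133 CPM in the wild type, highest in replicate 2, and to 7.29 to 19.6 CPM in the mutant. Of the 9, 4 were called lower, against 1.33% of all genes tested. Cpr100A and Lcp65Ad were at 0 in all mutant libraries. Muscle markers summed to 16.9 to 30.9 and 27.3 to 48.1 CPM, with none of 10 called. At an unadjusted p under 0.05, 3 of the 10 were higher, against 874 of the 9229 genes tested. Without Mef2, the most abundant of them, they summed to 6.42 to 15.8 and 22.5 to 34.1 CPM and did not overlap, and Act88F was at 0 in all wild-type libraries. The part of these lists in the changes of Rop, unc-13, Rab3-GEF, Rbp, brp and Vps45 was not tested. The sums of hemocyte and fat body markers (4705 to 5197 and 3917 to 5510 CPM, nearly all Pxn) overlapped. Those of progenitor markers (2713 to 3044 and 3366 to 4404 CPM) were nearly all pros and were higher in the mutant without overlap. Leaving pros out, the progenitor sums were 4.83 to 14.8 and 2.51 to 15.5 CPM and overlapped. No gene was called in either list, and the neuroblast gene wor was at 0 in all 6 libraries.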

How the data were processed

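The authors deposited a table of unnormalized read counts for each library. Per the labels, total RNA was amplified with a modified SMART-seq2 protocol, which carries no molecular identifiers. HTSeq 0.11.2, STAR 2.5.4 and bcl2fastq 2.19.0.316 are listed in the submitters' processing notes; build and strand setting are not given in the sources at hand. Spike-ins, 3 transgenes and 5 summary entries stayed out of library sizes. Reads outside annotated genes came to 8.59% to 10.9% of the gene counts and ambiguous ones to 2.49% to 2.66%.

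Genes passing filterByExpr (9229) were scaled with TMM and tested with the quasi-likelihood test of edgeR 4.0.16 (R 4.3.3) on genotype, two-sided, with Benjamini-Hochberg adjustment over all of them. The script was tested on simulated data. DESeq2 1.42.0 and limma 3.58.1 were alternatives. Transcript lengths, exon overlaps and distances between starts came from Ensembl 115 models of BDGP6.54, matched by identifier. The ratio test added 0.5 counts to each gene.

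The genes and lists were chosen with earlier results of these data known. The genes named are the 8, fixed partners, up to 4 called genes per list, genes overlapping or starting within 1000 bases of a member, and the 2 closest in pattern. Also named are list genes that DESeq2 alone called, the other Sec1/Munc18 and neuronal genes, and marker genes. Libraries are grouped by title. Nothing says that they came from separate animals, so p-values measure the spread between libraries, which may be technical. Within a group, every pair of libraries differed by more than counting error (chi-square divided by degrees of freedom, 58.1 to 116). Floors of 3 counts cover counting error only.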

Additional observations from a re-analysis of the deposited data

Results flagged for a closer look

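The membrane GFP transgene (mCD8-GFP), which is outside the gene comparison, was counted in every library. Per 1000000 gene counts it had 4230, 3640 and 3126 in the wild type (replicates 1 to 3). The mutant libraries had 4081, 4043 and 4517, and the groups overlapped. No library without the transgene was at hand to set a background, while GAL4 had 0 counts and flp at most 2 in a library.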

How the results depend on the processing

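Of 14 alternatives, the count of the 8 genes called stayed at 1 in 8 and was 0 with the replicate block and between 0 and 1 with a library left out. The count over all genes was 940 with DESeq2 and 143 to 249 with a library left out, and the partner count was 12 with DESeq2 and 2 to 4 with a library left out, against 406 and 5. Fewer libraries in a fit leave fewer residual degrees of freedom.

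Replicate numbers are shared between the groups, but same-numbered libraries did not deviate together (r of 0.016, -0.0013 and 0.047, and mutant replicate 1 correlated best with wild-type replicate 2), so they were not treated as pairs. With the replicate block, 293 genes were called, Rop had a log2 fold change of 0.67 (adjusted p 0.0588), and Rbp had an adjusted p of 0.0582. The paired exact p of a ratio cannot go below 0.25.

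Signs changed for 6 genes, none of them called, and for 1 ratio of levels. With upper-quartile scaling the log2 fold changes of Syx1A, Rab3 and c12.1 were -0.010, -0.0077 and -0.031, and c12.1 was at -0.00083 with the replicate block. With a library left out, Syx1A ran from -0.050 to 0.15, Rab3 from -0.013 to 0.078 and c12.1 from -0.065 to 0.15. In the same fits Syt1 ran from -0.19 to 0.068, Rpn2 from -0.037 to 0.44 and Plod from -0.0030 to 0.29. Rop over Syx1A per kilobase in the wild type was 0.17 with all exons joined or the longest transcript, against -0.36. The cause of these changes was not tested. No ratio within a library changed sign under any alternative run. No setting moved the median of all genes by over 0.06.

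The 95% interval of comt, at 265 to 698 counts a library, spanned -0.56 to 1.2, and that of Rab3, at 93756 to 153314 counts, spanned -0.14 to 0.20.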
